A study of Mus musculus with 18 samples.

Results

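Aminoacyl-tRNA synthetases were followed at the RNA level in activated mouse CD8+ T cells exposed to LCA, which the labels do not spell out and which is taken here as the bile acid lithocholic acid. The group held 35 of the 24537 genes of the count table, named as a gene family, and it was chosen with earlier results of these data known. Of these, 20 encode the cytosolic enzymes and 15 the mitochondrial ones, which mostly carry a symbol ending in 2. Lars2 was left out because the family's definition here takes its counts as inflated by reads of ribosomal RNA. It took 0.274 to 0.375% of a library's counts. All 35 genes passed the filter on low counts, which left 11651 genes for testing, and together they took 0.695 to 0.917% of a library's counts.

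The study asked how LCA acts on CD8+ T cells with and without Nur77, the orphan nuclear receptor encoded by Nr4a1. Naive CD8+ T cells received a CRISPR ribonucleoprotein, were then activated through CD3 and CD28, and were kept overnight with LCA at 0, 10 or 50 µM. RNA from a column kit went into a library preparation for very small inputs. There were 6 groups of 3 libraries. The cells called WT had a scrambled guide and no LCA (WT control), 10 µM (WT LCA10) or 50 µM (WT LCA50). The cells called KO had a Nur77 guide and the same doses (KO control, KO LCA10 and KO LCA50). All 6 groups shared the ribonucleoprotein step and the activation. The labels give neither the strain, the age, the vehicle nor whether the 3 libraries of a group came from separate animals or cultures, so each p-value measures only the spread between these libraries.

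Each synthetase joins an amino acid to its tRNA, so that the ribosome can place that residue in a growing protein. Cytosolic enzymes serve the translation of nuclear messages, and several of them sit in one multisynthetase complex held by scaffold proteins. The mitochondrial enzymes are made in the cytosol, imported, and serve the few proteins encoded by mitochondrial DNA. When tRNAs lack their amino acid, the kinase Gcn2 (Eif2ak4) slows translation and raises the factor Atf4, whose known targets include asparagine synthetase and several cytosolic synthetase genes. T cells raise synthetase messages when they are activated and begin to grow. In bulk RNA, fewer cells of a type and less RNA per cell cannot be told apart.

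The libraries held 4113713 to 5945518 counts. Nr4a1, the target of the guide, had 29 to 84 counts per library, and it averaged 9.60 ± 3.24 CPM (SD, n = 3) in WT control and 10.6 ± 2.48 CPM (SD, n = 3) in KO control. Its RNA therefore did not separate the guides, and an edited transcript can still be counted. CPM is a gene's count scaled to the size of its library over the tested genes, with edgeR's TMM. The 5 listed CD8 T cell markers present in the table (Cd3e, Cd3d, Cd3g, Cd8a and Cd8b1) summed to 2301 to 3007 CPM. Cd4 stayed at or below 1.29 CPM. The CD4 T cell list that holds it, with Cd40lg, Zbtb7b and Foxp3, summed to 12.6 to 36.2 CPM. That sum was highest in KO LCA50 replicate 1. Within the list, Foxp3 ran from 9.16 to 18.9 CPM and Zbtb7b from 0.195 to 20.02 CPM. The 8 myeloid markers summed to 36.5 to 69.3 CPM in the WT libraries and 14.1 to 28.6 CPM in the KO libraries, so they separated the guides at every dose; their part in the comparisons of guides was not tested. As a measure of background, 1477 olfactory, vomeronasal and trace amine receptor genes, which T cells are not known for, summed to 47.8 to 224 CPM. The highest values were in WT LCA50 replicate 3 (224 CPM) and KO LCA50 replicate 1 (166 CPM). KO LCA50 replicate 1 also stood apart from its group: its squared differences from the other 2 libraries, scaled by counting error, averaged 8.55 and 8.15, against 3.64 between those 2. Counts of called synthetases at 50 µM are therefore given with and without these 2 libraries.

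Levels between genes were compared as CPM per kilobase of exon in WT control. The cytosolic genes had a median of 58.0 CPM per kilobase and ranged from 16.4 to 187, and the mitochondrial genes had a median of 5.65 and ranged from 1.75 to 17.98. The highest level belonged to Gars (glycine), at 187 ± 16.6 CPM per kilobase (SD, n = 3), and the next to Vars (valine), at 175 ± 6.89, which lay within that spread. Qars (glutamine) was the lowest cytosolic gene, at 16.4 ± 0.497, and Rars2, which charges mitochondrial arginine tRNA, was the highest mitochondrial gene, at 17.98 ± 2.03. On this scale these neighbours were the one place where the order of the 2 classes crossed, and they differed by less than the SD of Rars2. The length counted every annotated exon base of a gene once, 6572 bases for Qars and 2771 for Rars2. Without division by length, Qars was at 108 CPM in WT control, above Rars2 at 49.8 CPM and below the mitochondrial Iars2 at 119 CPM. Wars2 (mitochondrial tryptophan) was the lowest of all, at 1.75 ± 0.585. Gars and Kars make both the cytosolic and the mitochondrial enzyme from 1 gene each, so their RNA serves both compartments.

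In scrambled-guide cells, 50 µM LCA was followed by higher RNA of 11 of 20 cytosolic synthetases, and none was lower, with genes called at an adjusted p under 0.05 in edgeR's quasi-likelihood test with Benjamini-Hochberg adjustment over all 11651 genes. Of all genes tested, 3.66% were called higher and 4.93% lower. The 11 were Aars, Cars, Eprs, Gars, Iars, Lars, Mars, Nars, Sars, Tars and Yars. Their log2 fold changes ran from 0.28 to 0.52, and in each the 3 treated libraries lay above the 3 controls. The median over all 20 cytosolic genes was 0.29, against 0.01 over all genes tested. Receptor background was also higher in these libraries, from 50.4 to 108 CPM in control to 122 to 224 CPM. With log2 of it as a covariate 4 cytosolic genes were called, including Vars, which was not among the 11. The summed CD8 T cell markers moved the other way, from 2931 to 3007 CPM in WT control to 2358 to 2608 CPM in WT LCA50 and from 2806 to 2893 CPM in KO control to 2301 to 2697 CPM in KO LCA50, and their part in the result was not tested.

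The rise was largest for Cars, which charges cysteine tRNA and lies at chr7:143557230-143600090 on the minus strand (GRCm38). Its level was 176, 203 and 183 CPM in the 3 WT control libraries, 214, 201 and 207 CPM in WT LCA10, and 257, 274 and 274 CPM in WT LCA50. The LCA50 libraries were clear of both other groups, while the LCA10 libraries overlapped the controls. The log2 fold change at 50 µM was 0.52 ± 0.08 (SE), a 1.43-fold rise, with an adjusted p of 4.07e-05 in edgeR. Lars, for leucine, was at 184, 226 and 193 CPM in control and 244, 316 and 298 CPM at 50 µM. The closest libraries of these groups were a treated one at 244 CPM and a control at 226 CPM, and the log2 fold change was 0.51 ± 0.10 (adjusted p = 0.00109, edgeR).

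Nars charges asparagine tRNA. It had the tightest controls of the family, at 390, 394 and 395 CPM, and reached 490, 510 and 534 CPM in WT LCA50 (log2 fold change 0.38 ± 0.07, adjusted p = 0.000195, edgeR). At 10 µM it stood at 452, 489 and 427 CPM, so all 3 libraries were above the controls there too, but its adjusted p was 0.208. Aars, for alanine, went from 444, 485 and 453 CPM to 578, 648 and 571 CPM (log2 fold change 0.38 ± 0.08, adjusted p = 0.00114, edgeR). The treated libraries were all above the controls. The exons of Aars share 14.3% of their length with Exosc6 on the same strand, so some reads could belong to that gene.

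Sars (serine, chr3:108424865-108445209, minus strand) stood at 367, 377 and 407 CPM in control and 479, 501 and 471 CPM at 50 µM, and Gars (chr6:55038007-55079500, plus strand) at 533, 636 and 581 CPM against 695, 780 and 745 CPM. Neither gene's groups overlapped. Their log2 fold changes were 0.33 ± 0.07 and 0.34 ± 0.07, with adjusted p of 0.00238 and 0.000965 in edgeR. The other 5 called genes changed by similar amounts: Iars (isoleucine) by 0.38, Eprs (glutamate and proline, joined in 1 protein) by 0.36, Yars (tyrosine) by 0.31, Mars (methionine) by 0.30 and Tars (threonine) by 0.28. Mars shares 1.99% of its exon length with Ddit3 on the opposite strand, and Yars 0.505% with C77080. No source used here gives whether reads were counted by strand.

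The 9 cytosolic genes that missed the threshold in WT LCA50 were spread on both sides of no change. Farsb, the beta subunit of phenylalanyl-tRNA synthetase, had a log2 fold change of 0.21 ± 0.07 with all 3 treated libraries above the controls (adjusted p = 0.0716, edgeR), and 9.47% of its exon length lies over Sgpp2 on the opposite strand. Farsa, the alpha subunit of that enzyme, had -0.02 ± 0.09, with levels of 131, 129 and 143 CPM in control and 131, 127 and 141 CPM at 50 µM. The difference between these 2 subunits was not tested. Vars stood at 0.17, Dars (aspartate) at 0.12, Rars (arginine) at 0.11, Kars (lysine) at 0.06 and Hars (histidine) at 0.05. The remaining 2 were below 0: Qars at -0.14 ± 0.10 and Wars (tryptophan) at -0.16 ± 0.07, with adjusted p of 0.453 and 0.166. Hars shares 7.97% of its exon length with Hars2 on the opposite strand.

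**Figure D1:**
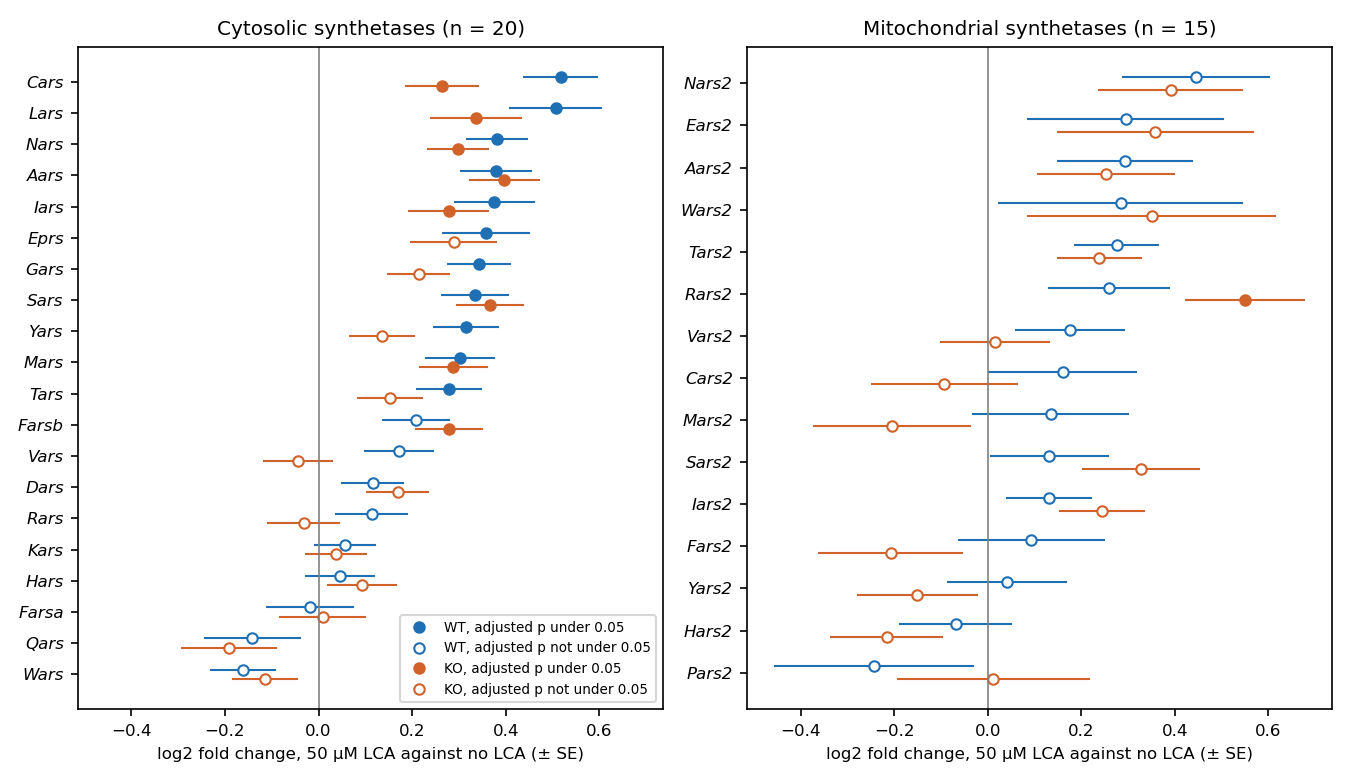
Log2 fold change of each synthetase gene at 50 µM LCA against no LCA (x axis, ± SE) in scrambled-guide cells (WT, blue) and Nur77-guide cells (KO, orange), cytosolic genes on the left and mitochondrial genes on the right. Filled points had an adjusted p under 0.05 in edgeR: 11 cytosolic genes in WT, 8 in KO, and the mitochondrial Rars2 in KO.

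**Figure D2:**
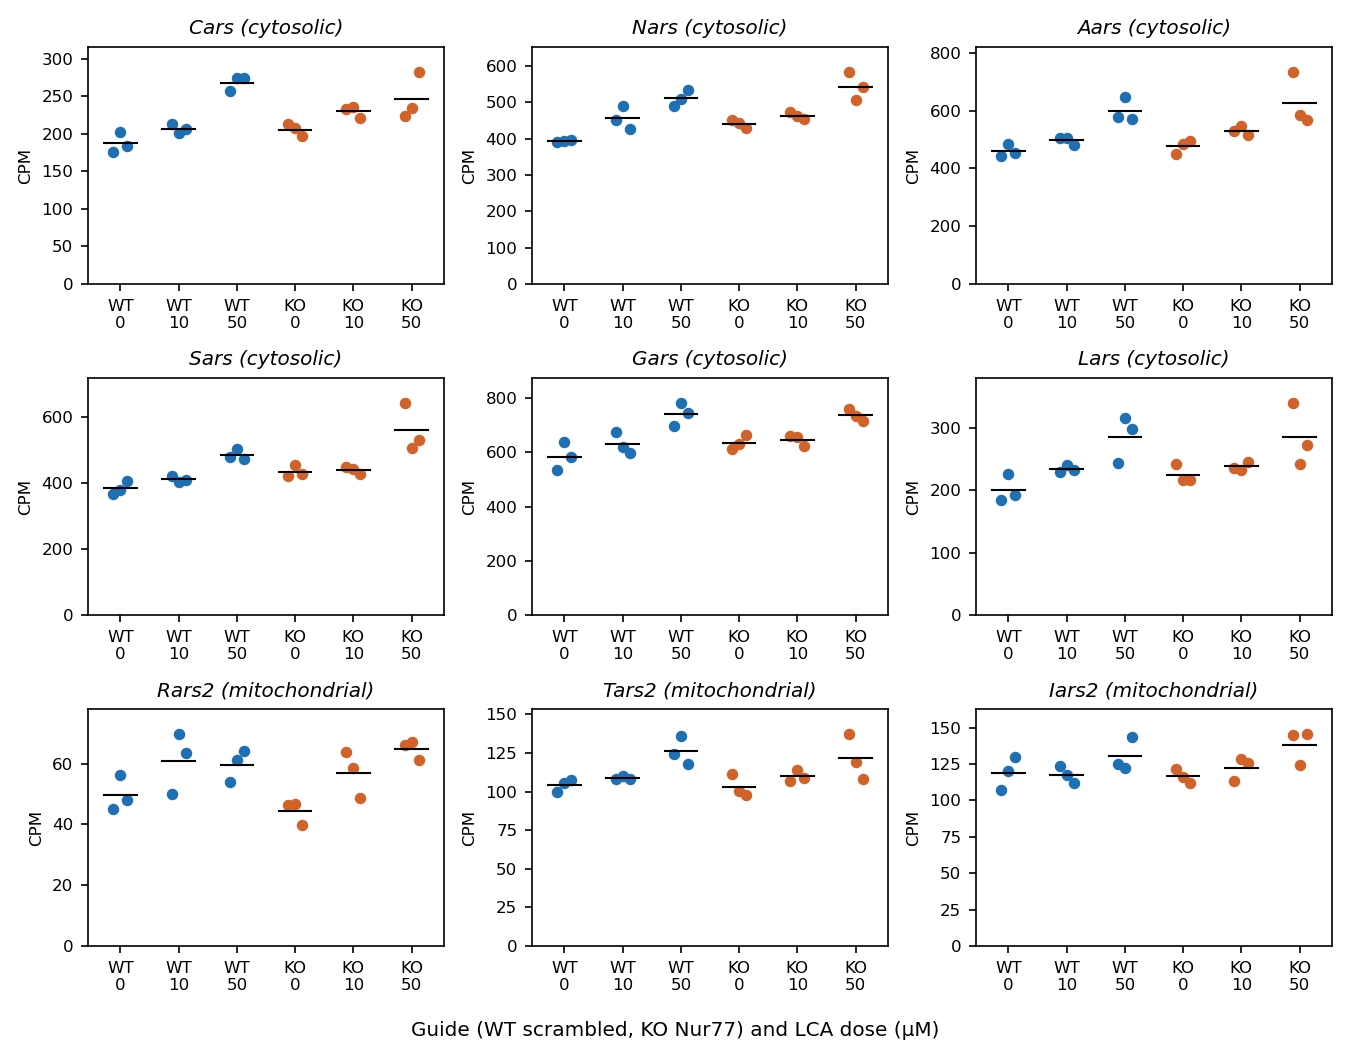
CPM (y axis) of 6 cytosolic and 3 mitochondrial synthetases in each library (points) with the group mean (bar), by guide and LCA dose in µM (x axis). The WT LCA50 libraries of Cars lie between 257 and 274 CPM, above all WT control and WT LCA10 libraries, while those of Iars2 overlap the controls.

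The mitochondrial synthetases showed no call in WT LCA50: 0 of 15 in edgeR, with 2 at an unadjusted p under 0.05 (Nars2 and Tars2), and 1 of 15 (Tars2) in DESeq2. Their median log2 fold change was 0.16, and 13 of 15 were above 0. Tars2, for mitochondrial threonine tRNA, was at 99.9, 105 and 107 CPM in control and 124, 136 and 118 CPM at 50 µM. Its groups did not overlap, and the log2 fold change of 0.28 ± 0.09 had an adjusted p of 0.0537 in edgeR. Nars2 (asparagine) went from 23.3, 23.6 and 26.1 CPM to 32.6, 33.1 and 33.7 CPM, also without overlap. Its log2 fold change, 0.45 ± 0.16, was larger than that of 9 of the 11 called cytosolic genes, and its adjusted p was 0.0744. Pars2 (proline) and Hars2 (histidine) were the 2 below 0, at -0.24 ± 0.21 and -0.07 ± 0.12. The others lay between: Ears2 (glutamate) at 0.30, Aars2 (alanine) at 0.29, Wars2 at 0.28, Rars2 at 0.26, Vars2 (valine) at 0.18, Cars2 (cysteine) at 0.16, and Mars2 (methionine), Sars2 (serine) and Iars2 (isoleucine) at 0.13, with Fars2 (phenylalanine) at 0.09 and Yars2 (tyrosine) at 0.04. Of these, only Aars2 had all 3 treated libraries above the controls. Exons on the opposite strand cover 22.9% of Iars2 (Rab3gap2), 8.72% of Fars2 (Nrn1), 5.83% of Cars2 (Naxd) and 1.73% of Ears2 (Ubfd1).

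The depth of the 2 classes differed, and with it the precision. Cytosolic genes had 338 to 6348 counts per library and mitochondrial genes 36 to 740. The median SE of the log2 fold change in WT LCA50 was 0.07 for cytosolic and 0.15 for mitochondrial genes. At the smallest ratio of change to SE that was called, a gene needed a log2 change of about 0.23 at the cytosolic median SE and 0.45 at the mitochondrial one. The counts of calls therefore do not show that the classes changed by different amounts, and no test of that difference across genes was made.

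Summed over genes, both classes were higher in all LCA50 libraries than in their controls. In WT cells the cytosolic sum was 6598 ± 221 CPM in control and 7866 ± 283 CPM at 50 µM (SD, n = 3), and the mitochondrial sum 642 ± 7.40 and 720 ± 8.38 CPM. In KO cells the cytosolic sum was 6848 ± 61.8 and 7771 ± 431 CPM, and the mitochondrial sum 633 ± 21.4 and 703 ± 20.8 CPM. The ratio of the 2 sums within a library was 10.3 ± 0.331 in WT control and 10.9 ± 0.334 in WT LCA50, and the libraries overlapped, the highest control being at 10.65 and the lowest treated one at 10.62. In KO cells it was 10.8 ± 0.465 and 11.04 ± 0.282, again with overlap. On the scale of mean log2 CPM, where each gene weighs equally, the cytosolic minus mitochondrial level changed by 0.07 in WT and 0.04 in KO. With the median over genes in place of the mean, the changes were 0.01 in WT and 0.15 in KO. With the mean over genes, the 3 treated libraries in WT, at 3.12 to 3.14, lay above the controls, at 2.99 to 3.10, and in KO the groups overlapped.

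**Figure D3:**
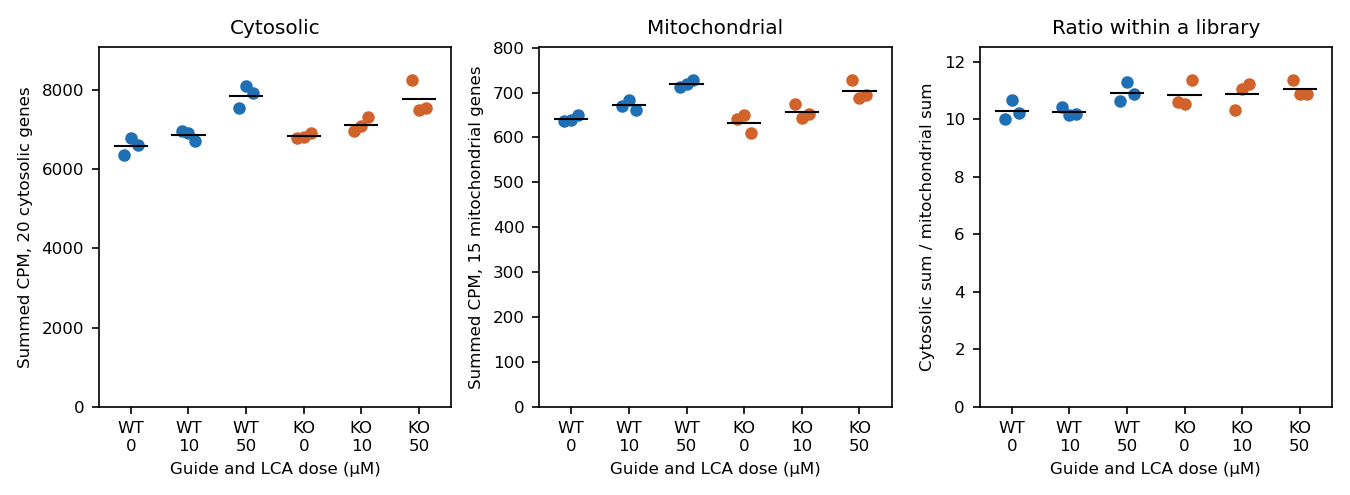
Summed CPM of the 20 cytosolic (left) and 15 mitochondrial (middle) synthetases and the ratio of the sums (right, no unit) in each library (points), with group means (bars), by guide and LCA dose in µM (x axis). Both sums are higher in every LCA50 library than in the controls of that guide, while the ratio at 50 µM overlaps that of the controls in both guides and lies from 10.003 to 11.37 over the 18 libraries.

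The stretches around the start sites of 4 called cytosolic genes and 1 mitochondrial gene follow, to show the letters of TGATGNAA, a form of the C/EBP-ATF composite element known from Atf4 target genes. Each runs 5′ to 3′ on the gene's strand from 150 bases before to 30 bases after the start, with capitals marking TGATGNAA on either strand, from RefSeq promoters on GRCm38.p6. The 4 are the called genes with the smallest p in WT LCA50 that hold a match and lie at chr6:55037851-55038030 (Gars, plus), chr8:111033692-111033871 (Aars, plus), chr4:129189753-129189932 (Yars, plus) and chr13:49681980-49682159 (Iars, plus). Tars2, the mitochondrial gene with the smallest p in WT LCA50, is at chr3:95754948-95755127 (minus) and has no match.
Gars: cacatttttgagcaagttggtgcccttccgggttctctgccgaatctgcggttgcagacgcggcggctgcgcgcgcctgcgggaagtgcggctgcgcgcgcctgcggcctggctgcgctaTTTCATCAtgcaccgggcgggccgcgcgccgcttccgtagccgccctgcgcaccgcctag
Aars: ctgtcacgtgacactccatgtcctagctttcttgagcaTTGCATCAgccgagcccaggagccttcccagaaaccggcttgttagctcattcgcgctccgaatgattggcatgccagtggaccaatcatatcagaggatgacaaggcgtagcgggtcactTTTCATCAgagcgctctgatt
Yars: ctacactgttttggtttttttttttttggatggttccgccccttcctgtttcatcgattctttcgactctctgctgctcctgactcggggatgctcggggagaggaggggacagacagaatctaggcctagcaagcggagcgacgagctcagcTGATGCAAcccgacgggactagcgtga
Iars: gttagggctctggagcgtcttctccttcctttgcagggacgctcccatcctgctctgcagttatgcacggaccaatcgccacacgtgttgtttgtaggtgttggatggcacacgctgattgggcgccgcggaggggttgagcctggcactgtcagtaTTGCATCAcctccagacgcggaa
Tars2: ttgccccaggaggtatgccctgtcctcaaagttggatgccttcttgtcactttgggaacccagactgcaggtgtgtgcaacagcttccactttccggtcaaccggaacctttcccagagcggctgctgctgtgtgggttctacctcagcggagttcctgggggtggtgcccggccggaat

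The motif was searched on both strands in 300 bases, from 250 before to 50 after the start, of the 26 synthetase genes that matched a RefSeq entry. It was present in 5 of 13 cytosolic promoters (38.5%): Aars with 2 matches, and Gars, Iars, Tars and Yars with 1 each. None of 13 mitochondrial promoters held it. Of all 32851 promoters of that length, 1304 (3.97%) did, and of the tested genes with a promoter 246 of 9006 (2.73%). In Aars the matches began 112 bases before and 9 bases after the start, in Gars 30 bases before, in Tars 15 bases before, in Iars 7 bases after and in Yars 3 bases after. All 5 genes with a match were called in WT LCA50, as were 3 of the 8 cytosolic genes without one (Eprs, Mars and Sars). A match is a string of letters, and binding was not measured. Cars, Hars, Lars, Nars, Rars, Vars, Wars, Hars2 and Pars2 were not searched.

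**Figure D4:**
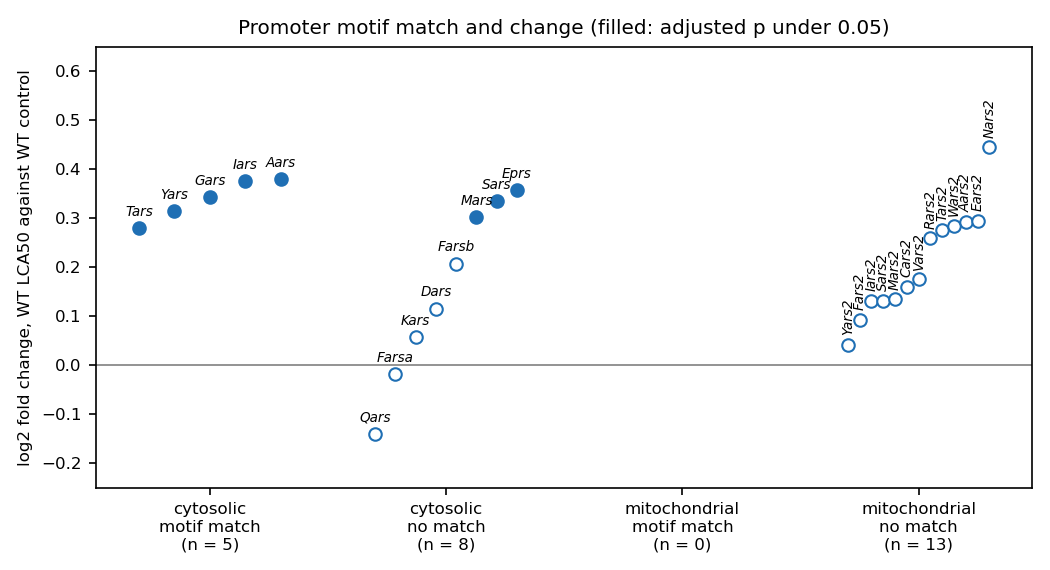
Change of the 26 synthetase genes with a RefSeq promoter, by class and by whether the promoter held TGATGNAA (x axis), as log2 fold change at 50 µM LCA in scrambled-guide cells (y axis). Filled points had an adjusted p under 0.05 in edgeR: all 5 cytosolic genes with a match, 3 of 8 without, and none of the 13 mitochondrial genes.

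In cells with the Nur77 guide, 50 µM LCA was followed by higher RNA of 8 of 20 cytosolic synthetases and 1 of 15 mitochondrial ones, with none lower, where 2.93% of all genes tested were called higher and 3.42% lower. The cytosolic genes were Aars, Cars, Farsb, Iars, Lars, Mars, Nars and Sars, with log2 fold changes of 0.26 to 0.40. In all but Lars the treated libraries were clear of the controls. The medians were 0.19 for cytosolic, 0.24 for mitochondrial and 0.00 for all genes tested. Of the cytosolic genes, 7 were called in both guides, all but Farsb. Eprs, Gars, Tars and Yars were called with the scrambled guide and not with the Nur77 guide, at 0.29, 0.21, 0.15 and 0.14.

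Aars stood at 450, 484 and 493 CPM in KO control and at 732, 583 and 566 CPM in KO LCA50, the first value being that of the library that stood apart. All 3 were above the controls, and the log2 fold change was 0.40 ± 0.08 (adjusted p = 0.000934, edgeR). Sars went from 419, 452 and 426 CPM to 640, 504 and 530 CPM (0.37 ± 0.07, adjusted p = 0.00123, edgeR). Its treated libraries were again clear of the controls, with replicate 1 the highest. Nars went from 452, 444 and 428 CPM to 582, 505 and 541 CPM (0.30 ± 0.07, adjusted p = 0.00381, edgeR). Lars was called with overlapping groups, at 243, 217 and 216 CPM in control and 339, 242 and 273 CPM at 50 µM (0.34 ± 0.10, adjusted p = 0.035, edgeR). Eprs, which was not called, stood at 722, 483 and 531 CPM against 474, 460 and 485 CPM in control, with replicate 1 far above the others and replicate 2 among the controls.

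Replicate 1 of KO LCA50 was the highest of its group in 15 of 20 cytosolic genes and in 2 of 15 mitochondrial genes. Without it and WT LCA50 replicate 3, 4 cytosolic genes were called in KO (Aars, Cars, Nars and Sars) and the median was 0.14. Without that replicate alone 5 were called. Leaving out KO control replicate 1, 2 or 3 gave 5, 4 and 3 calls. In WT cells the 11 genes called were the same without the 2 libraries, with a median of 0.27, and Tars2 was then called too (0.32 ± 0.10, adjusted p = 0.0319, edgeR).

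In KO cells the receptor background overlapped between doses, at 95.0 to 115 CPM in control and 47.8 to 166 CPM at 50 µM. The 4 cytosolic genes called in WT LCA50 with the background covariate were Cars, Gars, Nars and Vars, and the median was 0.20. Cars was then at 0.49 ± 0.10 and Nars at 0.30 ± 0.08, while Eprs, at 0.11 ± 0.09, was no longer called. The same covariate gave 10 cytosolic calls in KO LCA50.

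Rars2, the mitochondrial arginine enzyme (chr4:34614957-34660167, plus strand), was the 1 mitochondrial gene called. It was at 46.4, 46.6 and 39.9 CPM in KO control, 63.9, 58.5 and 48.8 CPM in KO LCA10, and 66.0, 67.1 and 61.3 CPM in KO LCA50. The LCA50 libraries were clear of the controls, and the log2 fold change was 0.55 ± 0.13, the largest of the 35 genes in KO LCA50 (adjusted p = 0.00636, edgeR). In WT cells it was at 45.2, 56.1 and 48.1 CPM in control and 53.9, 61.1 and 64.1 CPM at 50 µM, with overlap, and 0.26 ± 0.13. The call was lost without KO control replicate 3, its lowest library. Rars, the cytosolic arginine enzyme, was at -0.03 ± 0.08 in KO LCA50.

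The cytosolic and mitochondrial genes for the same amino acid were set side by side. There were 16 pairs of a cytosolic and a mitochondrial gene, with Farsa and Farsb both set against Fars2, and Eprs against Ears2 and Pars2. In WT LCA50 both genes were above 0 in 12 of the 16 pairs, and the cytosolic value was the larger in 11. In KO LCA50 both were above 0 in 7, and the cytosolic value was the larger in 10. Asparagine had 2 genes above 0 in both guides, as did alanine, glutamate, isoleucine, serine and threonine. Nars was at 0.38 and 0.30 and Nars2 at 0.45 and 0.39 in WT and KO. Methionine had Mars at 0.30 and 0.29 and Mars2 at 0.13 and -0.20. Tryptophan had Wars at -0.16 and -0.11 and Wars2 at 0.28 and 0.35. None of these mitochondrial values was called, and the differences within pairs were not tested.

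At 10 µM no synthetase was called in either guide. In edgeR 0 of 35 passed in WT LCA10, with 4 at an unadjusted p under 0.05, where 0.215% of all genes were called higher and 0.172% lower. In KO LCA10 0 of 35 passed, also with 4 at an unadjusted p under 0.05, against 0.206% of all genes higher and 0.12% lower. DESeq2 called 0 in both. The median change was 0.06 in WT and 0.07 in KO. Wars2 had the largest value, 0.82 ± 0.26 in KO LCA10, from 8.49, 9.24 and 8.62 CPM to 18.3, 10.8 and 17.4 CPM (adjusted p = 0.24, edgeR). These were 43 to 51 counts per control library.

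Between the doses, 3 of 35 genes were higher in WT LCA50 than in WT LCA10, beside 0.798% of all genes called higher and 1.47% lower. They were Cars (0.37 ± 0.08), Iars (0.38 ± 0.09) and Yars (0.32 ± 0.07), with adjusted p of 0.00636, 0.0119 and 0.00831 in edgeR. In KO cells Sars was higher at 50 than at 10 µM (0.35 ± 0.07, adjusted p = 0.00803, edgeR), beside 0.463% of all genes higher and 0.918% lower. The group means of 11 cytosolic genes in WT and 13 in KO were in rising order from 0 to 10 to 50 µM, as were those of 6 and 5 mitochondrial genes. These dose calls changed when single libraries were left out. The KO libraries lie outside the WT comparison, but the filter, scaling and estimate of spread were set over all libraries together. Without WT LCA50 replicate 2 or 3 no WT gene was called between doses, without WT LCA10 replicate 2 or 3 there was 1, without WT LCA50 replicate 1 or KO LCA50 replicate 1 there were 8, and without KO LCA50 replicate 2 there were 5. In KO the count was 0, 5 and 2 without KO LCA50 replicate 1, 2 and 3.

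No synthetase was called between guides. In edgeR 0 of 35 were called in KO against WT without LCA, at 10 µM and at 50 µM, with 2, 3 and 3 at an unadjusted p under 0.05 and 0 in DESeq2. Of all genes 0.627%, 0.661% and 1.94% were called in those comparisons, in either direction. The closest was Vars at 50 µM, with 1147, 1125 and 1048 CPM in WT and 840, 1040 and 898 CPM in KO. The WT libraries were all higher, and the log2 difference of -0.26 ± 0.08 had an adjusted p of 0.0663 in edgeR. The test of the difference between the guides' responses called 0 of 35 at 50 µM and 0 of 35 at 10 µM, each with 1 at an unadjusted p under 0.05 and 0 in DESeq2, and 0% of all genes in both. The 1 gene was Cars at 50 µM, with a response smaller in KO by -0.25 ± 0.11 on the log2 scale (adjusted p = 0.793, edgeR), and at 10 µM it was Wars2. These misses do not show that the guides act alike.

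Across the 20 cytosolic genes, the WT and KO responses at 50 µM, which share no library, had the same sign in 17 and a Pearson correlation of 0.86. Across the 15 mitochondrial genes the sign was shared by 10 and the correlation was 0.64. Genes are not independent replicates, and the libraries of each guide give all of the points.

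**Figure D5:**
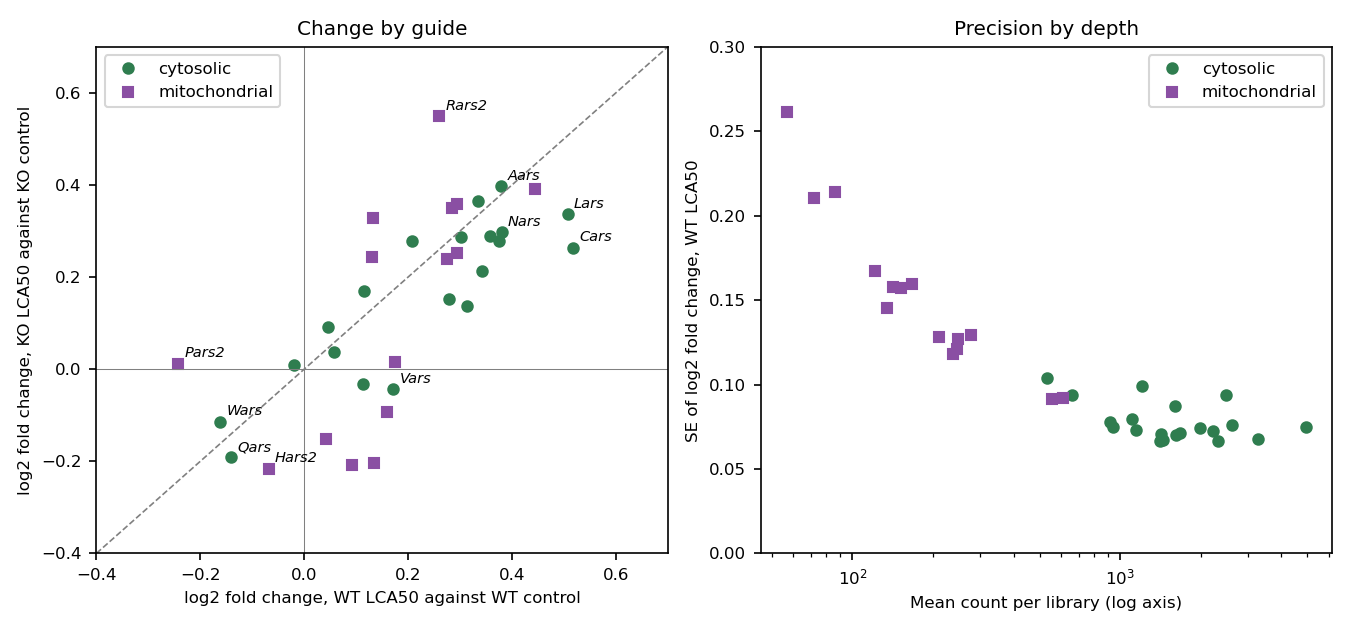
Left, log2 fold change at 50 µM LCA in KO (y axis) against WT (x axis) for each cytosolic (circles) and mitochondrial (squares) synthetase, with the line of equal change dashed. Right, SE of the WT log2 fold change (y axis) against the mean count per library (x axis, log scale). The mitochondrial genes lie at lower counts, and their SE runs from 0.09 to 0.26 where that of the cytosolic genes runs from 0.07 to 0.10.

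Within the cytosolic class, calls fell on both sides of the usual divisions. The shares of all genes tested that were called higher were 3.66% in WT LCA50 and 2.93% in KO LCA50. Of the 8 enzymes of the multisynthetase complex (Dars, Eprs, Iars, Kars, Lars, Mars, Qars and Rars), 4 were called in WT LCA50 and 3 in KO LCA50, with medians of 0.21 and 0.22. Of the 12 outside it, 7 and 5 were called, with medians of 0.30 and 0.18. The scaffold genes of the complex, Aimp1, Aimp2 and Eef1e1, gave 0 calls of 3 in edgeR in both guides, with none at an unadjusted p under 0.05 and log2 fold changes from -0.13 to 0.15. Aimp2 was at 157, 151 and 139 CPM in WT control and 173, 141 and 138 CPM in WT LCA50. By catalytic fold, 5 of 9 class I and 5 of 10 class II enzymes were called in WT LCA50, and 4 of each in KO LCA50. Eprs joins both folds and was left out of that count.

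A list of 10 genes that sense uncharged tRNA or act after that signal was examined. Asns, Atf4, Chac1, Sesn2 and Trib3 were called higher in WT LCA50 and again in KO LCA50, and none was lower. The medians of the list were 0.71 and 0.59. Of all genes tested, 3.66% were called higher in WT LCA50 and 2.93% in KO LCA50. Asns, the enzyme that makes asparagine, was at 223, 254 and 227 CPM in WT control and 394, 470 and 442 CPM in WT LCA50 (log2 fold change 0.89 ± 0.09, adjusted p = 1.55e-07, edgeR). In KO it went from 318, 334 and 304 CPM to 589, 462 and 421 CPM (0.62 ± 0.09, adjusted p = 5.59e-05, edgeR). The treated libraries were above the controls in both guides. Asns was also higher in KO control than in WT control, by 0.44 ± 0.09 (adjusted p = 0.0164, edgeR). The RNA of Atf4 itself rose by 0.53 ± 0.10 in WT and 0.55 ± 0.10 in KO, and that of Chac1, which breaks down glutathione, by 1.42 ± 0.22 and 1.21 ± 0.22. Eif2ak4, the Gcn2 kinase gene, was not called, at 0.10 and -0.30, and neither were Gcn1l1, Eif2s1, Ppp1r15a and Ddit3. Of these, Ddit3 had wide errors and values above 0 at each step of dose. It was above control by 0.48 ± 0.37 in WT LCA10 and 0.20 ± 0.36 in KO LCA10. From 10 to 50 µM it was higher by 0.51 ± 0.35 in WT and 0.94 ± 0.34 in KO. DESeq2 called 5 of the 10 genes higher in WT LCA50 and 6 in KO LCA50, and 0 lower.

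Few genes of the other steps of tRNA use and translation were called. Among all genes tested the share called higher was 3.66% in WT LCA50 and 2.93% in KO LCA50. Of 17 genes for tRNA export and maturation, Elac2, which trims the 3′ end of tRNA precursors, was called in WT LCA50 (75.6, 95.2 and 70.0 CPM in control, 109, 102 and 107 CPM treated, 0.40 ± 0.10, adjusted p = 0.00847, edgeR) and 0 in KO, with 2 at an unadjusted p under 0.05. The exporter Xpot was at 0.46 ± 0.14 in WT with an adjusted p of 0.0506. Of 6 cytosolic elongation factors and 9 mitochondrial translation factors, 0 were called in either guide, with 0 and 1 at an unadjusted p under 0.05 in WT and 2 and 1 in KO. Their medians lay between 0.01 and 0.08. Eef1a1 and Eif5a, the most abundant of the first list, were at 0.00 and 0.01 in WT, and Mtif3 and Gfm1, the most abundant of the second, at -0.05 and 0.07. Of 10 other synthetase-like, editing and mitochondrial charging genes 0 were called at 50 µM in either guide, with 3 at an unadjusted p under 0.05 in each, and Dtd1, which removes D-amino acids from tRNA, was lower in KO LCA10 (-0.60 ± 0.12, adjusted p = 0.0162, edgeR). DESeq2 also called 0 in the scaffold, elongation, mitochondrial factor and synthetase-like lists in both guides, and it called 3 export and maturation genes in WT and 0 in KO.

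Wars is known as an interferon-induced synthetase, and it was set beside 7 genes of that response. Among all genes tested, 4.93% were called lower in WT LCA50 and 3.42% in KO LCA50. In WT LCA50 Gbp2 fell by 0.88, Gbp3 by 0.53, Irf1 by 0.43 and Gbp4 by 0.25 on the log2 scale, and in KO LCA50 Gbp2, Irf1 and Gbp3 fell by 0.61, 0.38 and 0.32. Irf1, a transcription factor of the interferon response, was at 547, 529 and 538 CPM in WT control and 440, 374 and 385 CPM in WT LCA50 (SE 0.07, adjusted p = 5.4e-05, edgeR). Ifng, the interferon gamma gene, went the other way and was called higher in KO LCA50 (adjusted p = 0.0246, edgeR). It was at 0 to 3.39 CPM in KO control and 5.50 to 20.97 CPM in KO LCA50. In WT cells Ifng was above control at 10 µM by 1.70 ± 0.66 (adjusted p = 0.531, edgeR). WT LCA50 was above WT LCA10 by 0.41 ± 0.57 (adjusted p = 0.786, edgeR). Ifng was not called between guides at 50 µM, at -0.25 ± 0.57 in KO against WT. DESeq2 called 1 gene of this list higher in WT LCA50 and 1 in KO LCA50, so a higher call was not confined to the Nur77 guide. It called 4 lower in WT LCA50 and 3 in KO LCA50. Wars itself was at 338, 382 and 366 CPM in WT control and 315, 310 and 346 CPM in WT LCA50, with overlap and no call.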

How the data were processed

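RNA was measured in 18 libraries, 6 groups of 3, as raw counts per gene deposited by the authors in 1 table. The submitters' processing notes name STAR, HOMER, DESeq2 and the builds GRCm38 and mm10, without versions or roles. Sample columns not matched to a sample numbered 0. Library totals were 4113713 to 5945518 counts, so a gene with 36 counts carries far more counting error than one with 6348.

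Genes kept by edgeR's filterByExpr (11651 of 24537) were scaled by TMM and fitted over all 18 libraries with edgeR 4.0.16 (quasi-likelihood, robust) in R 4.3.3 with limma 3.58.1, and p-values were adjusted by Benjamini-Hochberg over all tested genes, with a threshold of 0.05. There were 11 contrasts. The common dispersion gave a biological coefficient of variation of 0.0984. An SE is the log2 fold change divided by the root of the F statistic. Levels on the log2 scale used a prior count of 2. The fit was tested on simulated data. DESeq2 1.42.0, other scalings, filters, thresholds, a covariate, a replicate block and left-out libraries were alternatives. Figures and motif searches used Python 3.11.15.

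The members, gene lists and alternatives were chosen with earlier results of these data known. Per-library values were set for the up to 6 cytosolic and 4 mitochondrial called genes with the smallest p at 50 µM, and other lists were to be named by up to 3 called genes, or by the 2 most abundant. Tars2, Nars2, Farsa, Vars, Eprs, Wars2, Wars, Sesn2, Trib3, Eif2ak4, Xpot, Gbp4 and Ifng were given more room after their values were seen. Deviations from group means of libraries with the same replicate number correlated at -0.22 to 0.09 over 45 pairs, so the numbers were not taken to pair libraries.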

Additional observations from a re-analysis of the deposited data

How the results depend on the processing

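Of the counts of called genes recomputed under alternative settings, 376 stayed within 1.5 times the reported count and 44 did not. Counts of 0 that stayed 0 are among the 376, and 0 was the reported count at 10 µM and between guides. Signs were compared only at 50 µM against control, and no called synthetase changed sign there. In WT LCA50 the 11 cytosolic calls became 4 with the background covariate. These were Cars, Gars, Nars and Vars, and Vars was not among the 11. A test against a log2 change of 0.25 (glmTreat) left 1, Cars. Leaving out single libraries gave 8 to 11. The mitochondrial count there, 0, was 1 (Tars2) with DESeq2, with a mean CPM of at least 5, with the compared groups alone and without both high-background libraries, and 0 to 1 with single libraries left out. The 8 cytosolic calls in KO LCA50 became 4 with the compared groups alone, 4 without both high-background libraries and 0 with glmTreat, and 3 to 10 with single libraries left out. The mitochondrial call there became 0 with glmTreat and 0 to 2 with single libraries left out. Between doses, the 3 WT calls became 6 with DESeq2, 5 with no filter, 5 with a mean CPM of at least 5, 9 with the compared groups alone, 1 with the covariate, 6 without both libraries and 0 with glmTreat, and 0 to 8 with single libraries left out. The 1 KO call became 2 with DESeq2 and 0 with the compared groups alone, without both libraries and with glmTreat, and 0 to 5 with single libraries left out. For KO against WT at 50 µM, the 0 became 1 with no filter, 1 with a mean CPM of at least 5 and 2 with the covariate, and 0 to 2 with single libraries left out. The KO change of cytosolic minus mitochondrial level, 0.04, was 0.15 as a median over genes. Over all genes, the 426 higher and 574 lower in WT LCA50 became 164 and 174 with the covariate, 92 and 154 with glmTreat, and 216 and 306 without WT LCA50 replicate 3. The 341 and 399 in KO LCA50 became 173 and 199 with the compared groups alone, 191 and 237 without both libraries, 85 and 101 with glmTreat, and 159 and 225 without KO control replicate 3. The causes were not tested, beyond the fewer libraries or higher threshold that some settings carry.

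With the replicate number as a block, the cytosolic count in KO LCA50 was 5, without Cars, Iars and Lars. The numbers did not pair the libraries, and 3 of 18 libraries correlated best with others of their own number.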
